A study of Mus musculus with 7 samples.

Results

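The ecto- and endo-nucleotidases are enzymes that strip phosphate from nucleotides outside the cell or inside the secretory pathway. 10 of their genes were examined in nucleus pulposus, the soft gel at the centre of an intervertebral disc: Entpd4, Entpd7, Entpd5, Entpd6, Entpd1, Entpd2, Entpd3, Nt5e, Enpp1 and Enpp2. They were chosen by gene symbol, with Entpd4 picked because its value was lower in mutant animals in these same data. Of the 10, 8 were among the 19505 named genes measured, on 9 array features, and Enpp1 and Enpp2 were not analysed here. RNA of 7 mice was read on Affymetrix arrays, 1 array per animal, with the lumbar and caudal discs of an animal pooled. In 3 mice the lactate exporter MCT4 was knocked out in the whole body (MCT4KO, 14 months old), and 4 wild-type mice (WT, 13 months old) were the controls, so the effects of age and of genotype cannot be told apart. The sample records name the strain C57BL/6 for every animal, the design text names C57Bl/6N for the knockouts and C57Bl/6 for WT, and the breeding notes describe littermates of heterozygous parents backcrossed to C57Bl/6N for 10 generations. The sources used here do not give the sex.

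Extracellular ATP is cut stepwise to ADP, AMP and adenosine. Members of the NTPDase family (Entpd genes) remove the outer phosphates, ecto-nucleotidase CD73 (Nt5e) removes the last one, and the NPP enzymes (Enpp genes) split ATP to AMP and pyrophosphate. Some NTPDases sit at the plasma membrane, and others work in the endoplasmic reticulum and Golgi, where they hydrolyse the nucleoside diphosphates left after sugars are joined to proteins and proteoglycans, of which the nucleus pulposus makes a great deal. In the disc the pathway is known for shaping ATP signalling through P2 receptors and for supplying pyrophosphate, an inhibitor of mineral deposition.

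Values below are log2 expression values as deposited, and a gene was called changed at a limma adjusted p under 0.05 over all 19505 genes. The negative control features of the arrays had a median of 5.99, and array medians over named genes ran from 6.46 to 6.51. Slc16a3, which encodes MCT4, read 5.02, 4.98 and 4.47 in MCT4KO 1 to 3, below the control median of each array, and 13.35 to 13.61 in the 4 WT animals. In all, 115 genes were called, 23 higher and 92 lower in MCT4KO, and the median log2 change over all genes was 0.017. Nucleus pulposus markers averaged 12.76 to 12.99 in MCT4KO animals and 12.71 to 12.99 in WT animals. Of the 11 measured, Foxf1 and Nog were at background in both groups. Pax1 was at background in WT and above it in MCT4KO 1 alone, at 6.32, and the rest lay above background in every animal. Neutrophil and marrow markers differed most between animals, at a list mean of 5.20 to 5.86 in MCT4KO and 7.61, 9.74, 5.92 and 6.22 in WT 1 to 4, with 10 of 10 lower on average in MCT4KO. Where leaving out WT 1 and WT 2 moved the change of a named gene above background by over 1.5 times, that value is given too.

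Entpd4, a uridine diphosphatase of the Golgi and of lysosomal and autophagic vesicles, had lower values in every MCT4KO animal than in any WT animal, on both of its features. Its brighter feature read 12.46, 12.99 and 12.83 in MCT4KO 1 to 3, against 14.55, 14.77, 14.51 and 14.38 in WT 1 to 4. The groups did not overlap, and the lowest WT value lay well above the highest MCT4KO value. The means were 12.76 ± 0.273 in MCT4KO (SD, n = 3) and 14.55 ± 0.162 in WT (SD, n = 4), a log2 change of -1.80 ± 0.164 (SE), so that WT read 3.47-fold higher. The dimmer feature read 11.52, 12.33 and 11.95 in MCT4KO animals, against 13.47, 13.64, 13.58 and 13.26 in WT animals, with means of 11.93 ± 0.405 in MCT4KO and 13.49 ± 0.171 in WT. Its log2 change was -1.55 ± 0.196, or 2.94-fold higher in WT. MCT4KO 1 had the lowest value on both features and MCT4KO 2 the highest of the mutants. Because the gene was picked for this difference, it is described and not tested, and 32 of the 19505 genes had a larger decrease. The change ran from -1.91 to -1.64 when each animal was left out in turn, and it was -1.69 without WT 1 and WT 2, in which neutrophil markers were highest. In whole tissue, fewer cells of a type and less RNA per cell cannot be told apart.

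**Figure D1:**
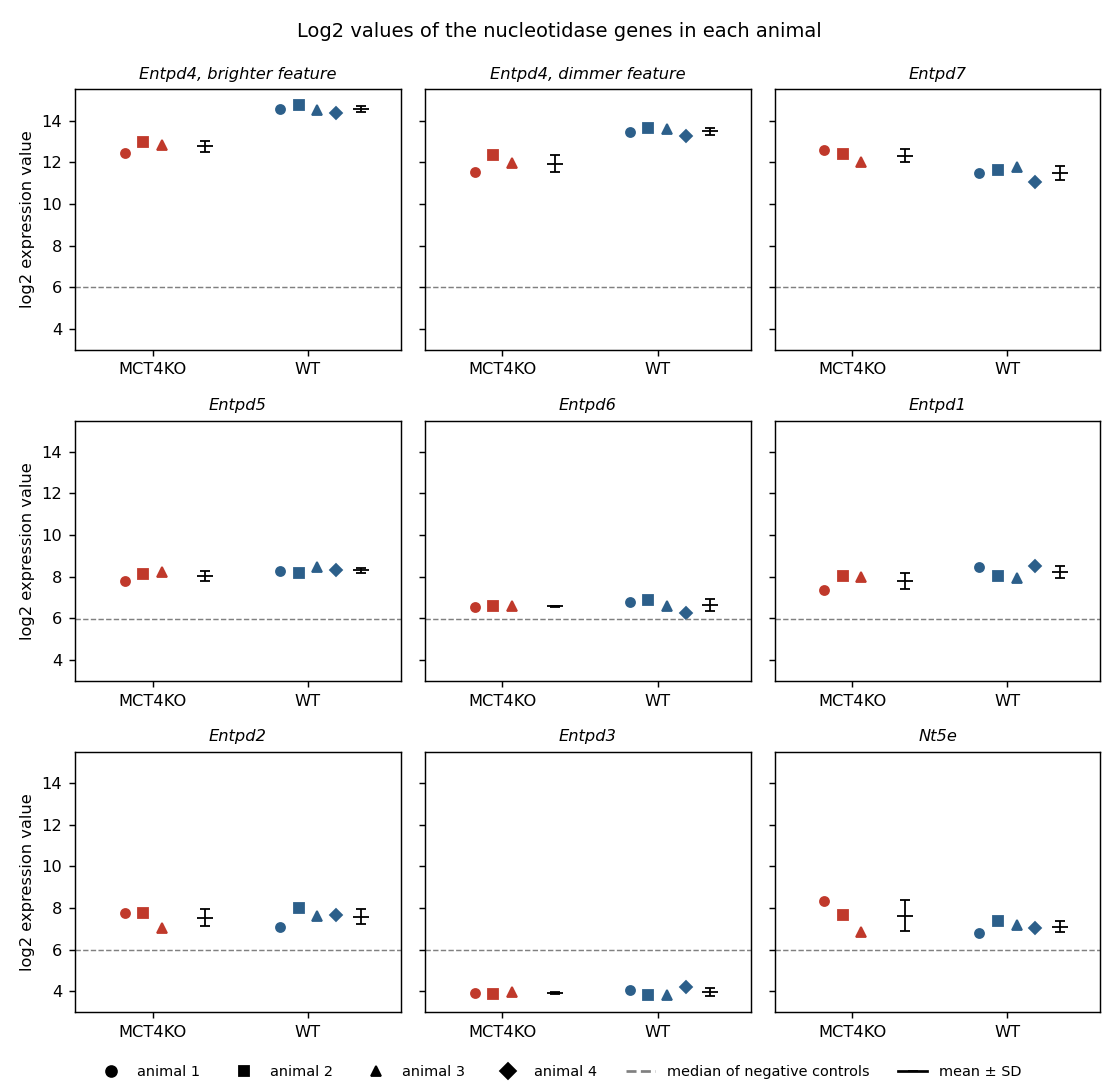
Log2 expression value (vertical axis) of each measured nucleotidase gene in the 3 MCT4KO animals (red, left) and the 4 WT animals (blue, right), with the group mean ± SD beside the points and the negative control median of 5.99 as a dashed line. Entpd4 sits at 12.46 to 12.99 in MCT4KO and 14.38 to 14.77 in WT on its brighter feature, Entpd7 is the other gene whose groups do not overlap, and Entpd3 lies below the dashed line in all 7 animals.

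Entpd4 has a near copy, Entpd4b, on the same chromosome, 14, with 4 annotated loci between them in the RefSeq assembly GRCm38.p6, which is of C57BL/6J. No feature carried the symbol Entpd4b, and the sources used here do not say whether the probes of the Entpd4 features also read the copy, so each Entpd4 value may hold RNA of both. The promoter window of Entpd7, whose groups did not overlap, is shown beside that of Entpd4b, the near copy of Entpd4, which has no measured value of its own. The Entpd4 window is not used here. Each is the 250 bases before the annotated start (RefSeq, GRCm38.p6, plus strand), chr14:69555151-69555400 for Entpd4b and chr19:43689439-43689688 for Entpd7, and capitals mark ACGTG, the core of the hypoxia response element, and GGGCGG, the GC box, on either strand.
Entpd4b: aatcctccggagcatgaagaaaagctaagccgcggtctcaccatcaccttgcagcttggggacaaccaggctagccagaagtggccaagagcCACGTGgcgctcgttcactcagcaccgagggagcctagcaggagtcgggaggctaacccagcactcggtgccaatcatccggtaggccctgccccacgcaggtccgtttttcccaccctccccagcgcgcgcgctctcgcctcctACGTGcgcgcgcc
Entpd7: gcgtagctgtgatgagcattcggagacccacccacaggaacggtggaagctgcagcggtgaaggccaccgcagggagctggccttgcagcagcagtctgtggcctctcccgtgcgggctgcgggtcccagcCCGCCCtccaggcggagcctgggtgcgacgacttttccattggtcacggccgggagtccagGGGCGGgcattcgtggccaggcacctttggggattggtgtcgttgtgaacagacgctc
The Entpd4b window held 3 matches to ACGTG, of which a CACGTG gave 1 on each strand, and 0 to GGGCGG. The Entpd7 window held 0 matches to ACGTG and 2 to GGGCGG. Among all 32851 windows of this length in the table, 16.6% held ACGTG and 32.7% held GGGCGG, and a match is only a description of these letters.

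None of the other 7 measured genes passed the test, where 0.590% of all genes did. In 1 of the 7, Entpd7, the groups lay apart, against 12.0% of all genes, of which 5.66% were higher and 6.37% lower in MCT4KO. Again 1 of the 7, Entpd7, had an unadjusted p under 0.05, against 12.7% of all genes. The median log2 change of the 7 was -0.060, with 2 above 0 and 5 below. These misses do not show that the genes were equal: the widest 95% interval reached 0.683 to either side of its estimate on the log2 scale.

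Entpd7, the closest relative of Entpd4 in the family and likewise an enzyme of internal membranes, gave higher values in MCT4KO, the opposite direction to Entpd4. It read 12.57, 12.40 and 11.99 in MCT4KO 1 to 3, against 11.46, 11.65, 11.77 and 11.05 in WT 1 to 4. All 3 mutants lay above all 4 WT animals, though MCT4KO 3 was close to WT 3. The means were 12.32 ± 0.298 in MCT4KO (SD, n = 3) and 11.48 ± 0.313 in WT (SD, n = 4), a log2 change of 0.83 ± 0.204 (SE; 95% interval 0.38 to 1.29; limma adjusted p = 0.13). The change stayed between 0.69 and 0.998 as each animal was left out, with adjusted p from 0.13 to 0.35, and was 0.91 without WT 1 and WT 2. The test with an intensity trend and a robust prior gave an adjusted p of 0.092, so the call did not pass under any setting tried. Within the mutants MCT4KO 1 had the highest Entpd7 and the lowest Entpd4 value, but the other animals did not keep to this opposite order. MCT4KO 2, the highest mutant in Entpd4, was not the lowest in Entpd7, and WT 4 was the lowest WT animal in both genes.

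The other enzymes of the secretory pathway had smaller differences, neither of which passed the test. Entpd5, the uridine diphosphatase of the endoplasmic reticulum that aids folding of glycoproteins, read 7.78, 8.12 and 8.21 in MCT4KO, against 8.28, 8.18, 8.47 and 8.33 in WT. Only MCT4KO 1 and MCT4KO 2 lay below every WT animal, and the difference was -0.27 ± 0.148 (SE; 95% interval -0.61 to 0.06; limma adjusted p = 0.47), or -0.15 without MCT4KO 1. Entpd6, a Golgi and secreted diphosphatase, read 6.55, 6.58 and 6.59 in MCT4KO, inside the 6.27 to 6.88 of the WT animals. Its difference was -0.07 ± 0.163 (95% interval -0.44 to 0.29; limma adjusted p = 0.88), and its values stood at the 53.7th to 68.2nd percentile of the negative controls, so it was measured close to background. Its change was -0.20 without WT 4, 0.0047 without WT 2 and 0.12 without WT 1 and WT 2.

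**Figure D2:**
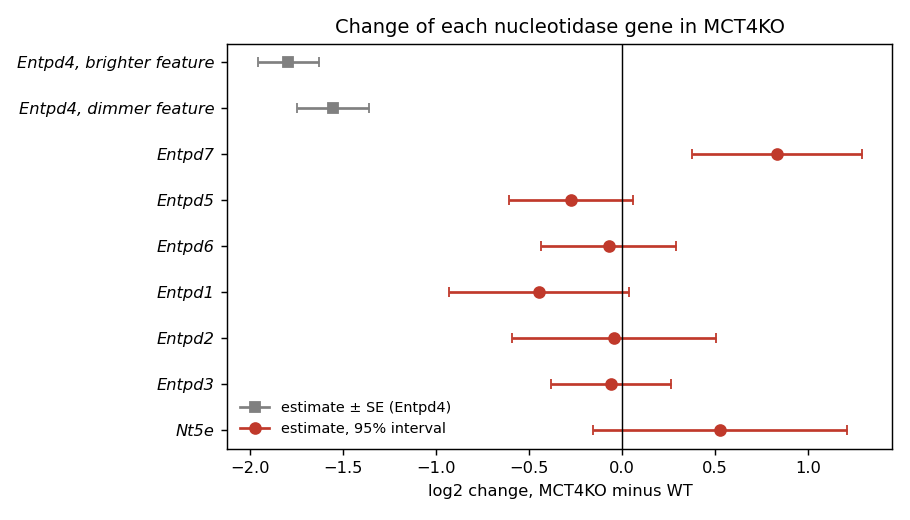
Log2 change, MCT4KO minus WT (horizontal axis), of each measured nucleotidase gene. Grey squares give both features of Entpd4 with their SE, at -1.80 and -1.55, red circles give the other 7 genes with 95% intervals, and of these the interval of Entpd7 alone, 0.38 to 1.29, leaves out 0.

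At the cell surface the enzymes that cut ATP and ADP did not pass the test. Entpd1, which encodes CD39 and takes ATP to AMP, read 7.35, 8.04 and 8.0 in MCT4KO, against 8.45, 8.04, 7.95 and 8.53 in WT. The groups overlapped, with MCT4KO 1 lowest, and the difference was -0.45 ± 0.216 (SE; 95% interval -0.93 to 0.04; limma adjusted p = 0.43), or -0.22 without MCT4KO 1. The Entpd1 values stood at the 75th to 89th percentile of the negative controls. CD39 is carried by endothelial and immune cells as well as by tissue cells. Of the endothelial markers 7 of 8 measured were at background in both groups, Vwf being the other, with list means of 4.84 to 5.09 in MCT4KO and 4.69 to 4.90 in WT. Of the macrophage markers 5 of 8 were at background, with list means of 5.67 to 5.83 in MCT4KO and 5.62 to 5.80 in WT. Their part in the Entpd1 values was not tested.

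Entpd2, which prefers ATP and so yields ADP, read 7.78, 7.78 and 7.06 in MCT4KO, against 7.08, 7.98, 7.63 and 7.65 in WT, with 1 low animal in each group. The difference was -0.04 ± 0.244 (SE; 95% interval -0.59 to 0.50; limma adjusted p = 0.95), and its sign turned under quantile normalization. It ran from -0.21 without WT 1 to 0.20 without MCT4KO 3, and was -0.10 without WT 1 and WT 2. The Entpd2 values stood at the 71st to 83rd percentile of the negative controls. Entpd3, an NTPDase best known from neurons and pancreatic islets, lay below the control median in all 7 animals, at 3.86 to 3.95 in MCT4KO and 3.80 to 4.21 in WT, and gives no size of change.

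Nt5e, which encodes CD73 and forms adenosine from AMP, was the most variable of these genes among the mutants. It read 8.36, 7.65 and 6.87 in MCT4KO 1 to 3, against 6.78, 7.40, 7.20 and 7.02 in WT 1 to 4. MCT4KO 1 and MCT4KO 2 lay above every WT animal and MCT4KO 3 among them, so the groups overlapped. The mutants spanned 2.82-fold and the WT animals 1.54-fold. The values stood at the 67th to 86th percentile of the negative controls, so the lower ones were close to background. The difference was 0.53 ± 0.305 (SE; 95% interval -0.16 to 1.21; limma adjusted p = 0.50), and it was 0.16 without MCT4KO 1 and 0.91 without MCT4KO 3. Among cartilage end plate and annulus markers, Col10a1 had the same order in the mutants, at 12.11, 9.02 and 7.18 in MCT4KO 1 to 3 and 7.02 to 8.50 in WT. Col2a1 did too, at 10.08, 9.22 and 8.85 in MCT4KO and 7.58 to 8.30 in WT (limma adjusted p = 0.088). Both were named after their values were seen. Col1a2 had that order as well, at 7.26, 6.42 and 6.03 in MCT4KO and 6.39 to 7.37 in WT, but its change was -0.25. Col1a1 and Mkx had neither that order nor its reverse, at 9.62, 9.64 and 9.26 for Col1a1 and 5.47, 6.03 and 5.58 for Mkx. Snorc and Scx, a tendon and annulus transcription factor, had the reverse order in the mutants, at 9.96, 10.34 and 10.68 for Snorc and 6.67, 6.68 and 6.77 for Scx. Without MCT4KO 1 the Col10a1 change was 0.47, against 1.81 with all animals. The list mean was 7.26, 6.81 and 6.49 in MCT4KO 1 to 3 and 6.45 to 6.76 in WT, and Matn1, Matn3, Epyc and Tnmd were at background in both groups. Snorc, a cartilage proteoglycan, was the 1 gene of the 11 that passed and was lower in MCT4KO, by a log2 change of -1.53 (limma adjusted p = 0.026). Of all genes 0.590% passed, and 0.472% passed and were lower in MCT4KO. The part of end plate and annulus cells in the Nt5e values was not tested.

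**Figure D3:**
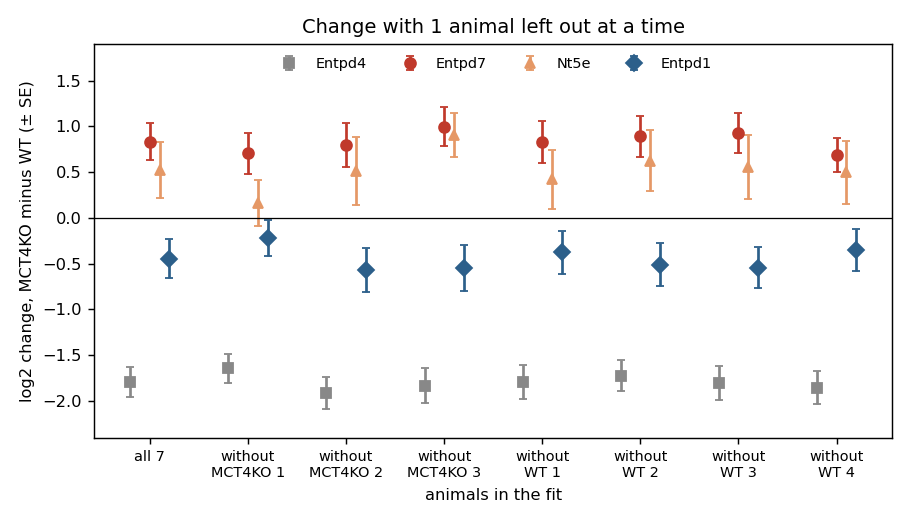
Log2 change, MCT4KO minus WT (vertical axis, ± SE), of Entpd4, Entpd7, Nt5e and Entpd1 in the fit of all 7 animals and in fits with 1 animal left out (horizontal axis). Entpd4 stays between -1.91 and -1.64 and Entpd7 between 0.69 and 0.998, while Nt5e moves from 0.16 without MCT4KO 1 to 0.91 without MCT4KO 3.

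The genes beside Entpd4 on chromosome 14 are given as a description. Entpd4 was picked for its decrease, so a smaller change in its neighbours was to be foreseen and tests nothing. Of the 5 nearest measured genes on each side, 0 of 10 passed the test, where 0.590% of all genes did. Their median log2 change was -0.065, and 4 (Adam28, Stc1, Nkx2-6 and Pebp4) were at background in both groups. R3hcc1, the nearest measured gene after Entpd4, read 7.42, 8.18 and 7.82 in MCT4KO, against 7.70, 7.28, 7.89 and 7.72 in WT, a change of 0.16 ± 0.207 (SE; limma adjusted p = 0.78). That change was 0.35 without MCT4KO 1, -0.027 without MCT4KO 2 and -0.00073 without WT 1 and WT 2. Chmp7, a subunit of the membrane-sealing ESCRT machinery, had 0.14 ± 0.139 (limma adjusted p = 0.70), and Tnfrsf10b, a death receptor, -0.26 ± 0.146 (0.48). On the other side Synb, a retrovirus-derived envelope gene, was at background in MCT4KO and close to it in WT, at 5.31 to 5.71 in MCT4KO and 5.74 to 6.00 in WT, with a change of -0.35 ± 0.144 (limma adjusted p = 0.36). Slc25a37, the mitochondrial iron carrier of erythroid cells, was at background in MCT4KO and reached 6.93 in WT 2 alone, with the other WT animals at 4.72 to 5.21. WT 2 also had the highest mean of the 2 erythroid markers measured, at 8.64, against 6.68 to 7.26 in the other WT animals. The Slc25a37 change was -0.57, or 0.00079 without WT 1 and WT 2.

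Entpd4 is among the genes known to differ in expression between C57BL/6 substrains. The design text names C57Bl/6N for the knockouts and C57Bl/6, with no substrain, for WT. The sample records name C57BL/6 for every animal, and the breeding notes describe littermates. Of the other genes known to differ between substrains, 7 were measured here, and 0 of 7 passed the test. Of all genes 0.590% did, so this count does not set them apart from the rest. Ide, the insulin-degrading enzyme, read 11.96, 11.98 and 11.88 in MCT4KO, against 12.03, 12.02, 11.79 and 12.73 in WT, a change of -0.20 ± 0.209 (SE; limma adjusted p = 0.71). WT 4 stood above the other animals, and the change was -0.0076 without it, -0.32 without WT 3 and -0.32 without WT 1 and WT 2. Fgfbp3, which binds fibroblast growth factors, had -0.07 ± 0.175 (limma adjusted p = 0.90), and Nlrp12, an innate immune regulator, 0.36 ± 0.162 (0.41). Nlrp12 read 7.01 to 7.46 in MCT4KO and 6.58 to 6.97 in WT, so its groups did not overlap, as in 12.0% of all genes. Wdfy1, Cyfip2, Crb1 and Mmrn1 were at background in both groups and give no size of change, and Nnt was not analysed here. The groups of Cyfip2 also lay apart, with the lower values in MCT4KO, though all were at background. Several of these genes differ between substrains in sequence and not in RNA level, so the values show only what the arrays read. If the groups differ in substrain, which these sources do not settle, substrain and genotype cannot be told apart.

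**Figure D4:**
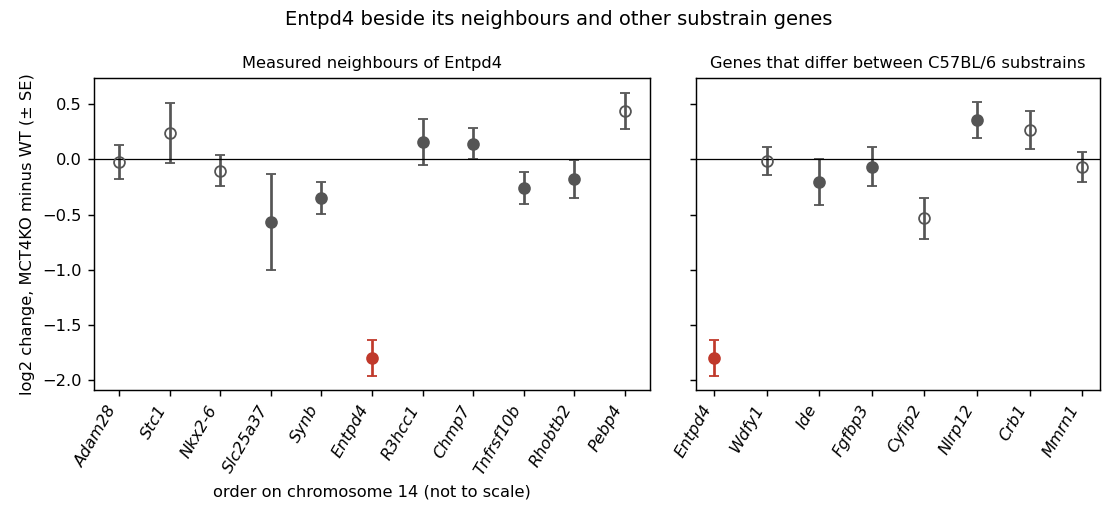
Log2 change, MCT4KO minus WT (vertical axis, ± SE), of Entpd4 (red, brighter feature) beside its 5 nearest measured genes on each side in chromosome order (left) and beside other genes known to differ between C57BL/6 substrains (right). Open circles are genes at background in both groups, and Entpd4, which was picked for its decrease in these data, is at -1.80.

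Genes whose values most resembled those of Entpd4 were ranked by Pearson's r over the 7 animals among 10651 genes with a mean above the control median in at least 1 group, as a description. Any gene that separates the groups cleanly scores high, since the animals fall into these groups. The 5 highest were Osbpl1a (r = 0.99), an oxysterol-binding protein, Ephx4 (0.98), an epoxide hydrolase relative, Gprasp2 (0.98), a receptor-sorting protein, Sap130 (0.98), a subunit of a histone deacetylase complex, and Tcf4 (0.98), a transcription factor. Ephx4 was nearest to Entpd4 in size, at 12.76, 13.23 and 13.06 in MCT4KO, against 14.90, 14.63, 14.72 and 14.30 in WT, a log2 change of -1.62 ± 0.178 (SE). The 5 lowest were Vmn2r120 (r = -0.99), a vomeronasal receptor at background in WT, Riok3 (-0.98), an atypical kinase, Cavin4 (-0.98), a caveolar protein of muscle, Tnnc1 (-0.97), a troponin of slow muscle and heart, and Speer4b (-0.97), of a repeated gene family. Riok3 read 12.78, 12.51 and 12.57 in MCT4KO, against 11.78, 11.72, 11.81 and 11.61 in WT, a change of 0.89 ± 0.130 (SE).

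Around the measured nucleotidases, 107 genes of the pathway were looked at in 9 lists, and 1 of them passed the test. It was Ampd3, the AMP deaminase that diverts AMP to IMP inside the cell, which rose in MCT4KO. Ampd3 read 13.29, 13.17 and 13.46 in MCT4KO, against 12.18, 12.18, 12.70 and 12.33 in WT, with no overlap between the groups, as in 12.0% of all genes. Its log2 change was 0.96 ± 0.164 (SE; limma adjusted p = 0.041), or 1.95-fold. The call did not hold when any 1 animal was left out, with changes of 0.88 to 1.08 and adjusted p from 0.051 to 0.12, and the change was 0.79 (adjusted p = 0.23) without WT 1 and WT 2. Of all genes 0.590% passed in either direction, and 0.118% passed and were higher in MCT4KO. In the same list of 15 adenosine uptake and conversion genes, 6 lay above 0 and 9 below, with a median of -0.05. Slc28a3, a concentrative nucleoside carrier, had the next smallest p (limma adjusted p = 0.38) and was at background in WT.

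Receptors for ATP and other nucleotides were mostly at background. All 7 P2Y receptors measured lay there in both groups, P2ry1 and P2ry12 among them, as did 3 of 7 P2X channels. P2rx4, an ATP-gated channel of plasma membrane and lysosomes, read 6.43, 6.69 and 6.59 in MCT4KO, against 7.71, 7.47, 7.23 and 7.04 in WT. The MCT4KO values, like those of Entpd6, were close to background. The groups did not overlap, as was so for 12.0% of all genes in either direction, and the difference was -0.79 ± 0.175 (SE; limma adjusted p = 0.096). P2rx5, another channel of the family, was at background in WT and above it in MCT4KO 3 alone, at 6.68 (limma adjusted p = 0.31). None of the 4 adenosine receptors was analysed here. Of 11 genes for release of ATP and pyrophosphate, 0 passed, where 0.590% of all genes did. Of the 11, 5 were at background, the pannexins Panx1, Panx2 and Panx3 included. Gja1, the connexin of gap junctions and hemichannels, had the smallest p of that list, at 17.16 ± 0.138 in MCT4KO (SD, n = 3) and 16.85 ± 0.278 in WT (SD, n = 4; limma adjusted p = 0.48), and Gjb2, another connexin, had -0.28 ± 0.202 (SE; limma adjusted p = 0.59). The Gja1 change, 0.31, was 0.18 without WT 1 and 0.10 without WT 1 and WT 2, and that of Gjb2 was -0.064 without MCT4KO 2 and -0.52 without MCT4KO 3.

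**Figure D5:**
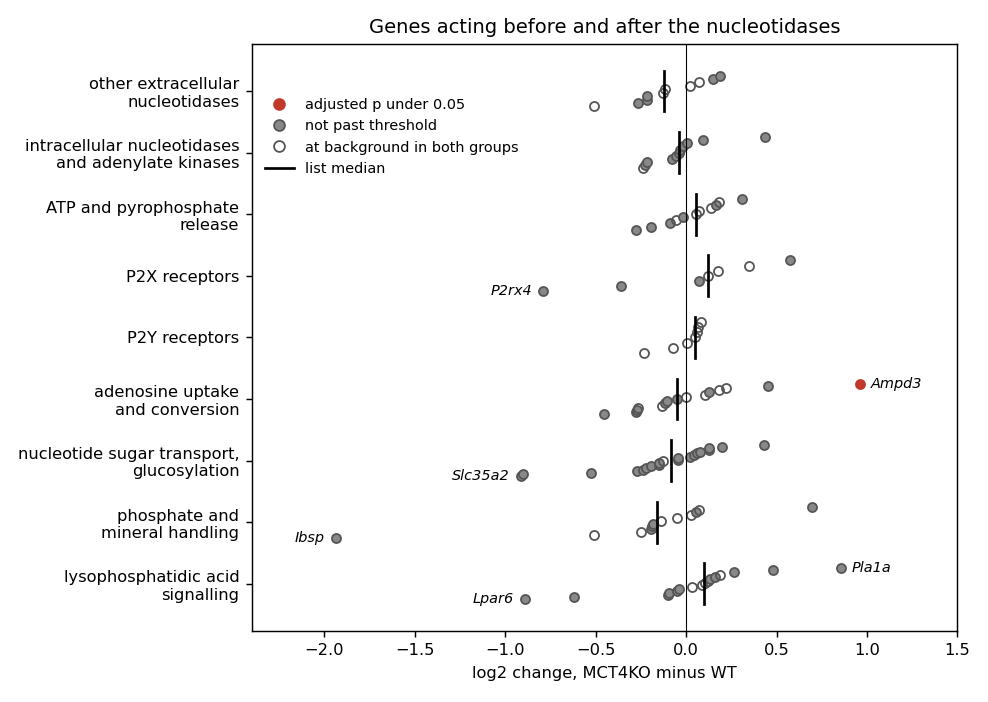
Log2 change, MCT4KO minus WT (horizontal axis), of single genes (circles) in 9 lists of the nucleotide pathway, with the list median as a vertical bar. Ampd3 at 0.96 is the 1 gene past the threshold, open circles are at background in both groups, and the list medians lie between -0.16 and 0.12.

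The remaining nucleotidases and kinases showed no called change, where 0.590% of all genes were called, so this does not set them apart from the rest. Of 10 other NTPDases, NPPs and related enzymes 0 passed and 5 were at background in both groups, tissue-nonspecific alkaline phosphatase (Alpl, limma adjusted p = 0.38) included. Enpp5, an NPP-family relative, read 13.05, 13.55 and 13.61 in MCT4KO, against 13.50 to 13.80 in WT, a difference of -0.27 ± 0.164 (SE; limma adjusted p = 0.52), or -0.093 without MCT4KO 1. Of 11 nucleotidases and adenylate kinases inside the cell 0 passed, with Ak3, a mitochondrial kinase, at 0.44 ± 0.169 (limma adjusted p = 0.33) and Nt5c1a, a cytosolic AMP nucleotidase, at background.

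Among 20 genes that make sugar nucleotides, carry them into the Golgi and endoplasmic reticulum or use them there, 0 passed, where 0.590% of all genes did. Of the 20, 8 lay above 0 and 12 below, and the median was -0.09. Slc35a2, the carrier of UDP-galactose, read 8.35, 8.90 and 7.68 in MCT4KO, against 9.34, 9.23, 9.23 and 9.11 in WT. Every mutant lay below every WT animal, and the groups lay apart in 12.0% of all genes in either direction. The Slc35a2 difference was -0.92 ± 0.245 (SE; limma adjusted p = 0.17), or -0.60 without MCT4KO 3. Slc35b4, a carrier of UDP-xylose and UDP-N-acetylglucosamine, had -0.90 ± 0.326 (limma adjusted p = 0.30), with MCT4KO 2, at 11.28, inside the WT range. Its change was -0.51 without MCT4KO 1 and -0.55 without WT 1 and WT 2.

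Of 12 genes of phosphate, pyrophosphate and mineral handling 0 passed, where 0.590% of all genes did, and 7 were at background in both groups. Ibsp, the bone sialoprotein, which is also an osteoblast marker, read 8.11, 9.65 and 7.43 in MCT4KO, against 10.95, 9.89, 9.75 and 10.74 in WT, a difference of -1.94 ± 0.485 (SE; limma adjusted p = 0.14), and it passed without MCT4KO 2 (-2.57, adjusted p = 0.042). Of the other 6 osteoblast and osteocyte markers measured, Bglap, Sp7, Dmp1, Phex and Sost were at background in both groups, and Mepe was at background in WT and above it in MCT4KO 1 alone, at 6.16. Of 16 genes of lysophosphatidic acid signalling, the lipid signal that autotaxin (Enpp2) makes, 0 passed, again against 0.590% of all genes. Pla1a, a phospholipase that yields lysophosphatidylserine, had 0.86 ± 0.193 (SE; limma adjusted p = 0.10). The receptor Lpar6 lay at background in the mutants and read at least 1.38-fold lower than in WT (limma adjusted p = 0.10). The groups of both genes lay apart, as did those of 12.0% of all genes in either direction.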

How the data were processed

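RNA was measured in 3 MCT4KO and 4 WT animals, 1 array each. The authors deposited 1 log2 value per feature and array, with Expression Console 1.4.1 named in the submitters' processing notes. The sources used here do not give the background correction or normalization. The log2 scale was inferred from the values. The highest was 19.4, how the scale was set is not stated in these sources, and fold changes are on the deposited scale. Precision is limited by the number of animals: the median SE of a log2 change was 0.167.

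Of 22206 transcript clusters, 19572 carried 1 gene symbol, 0 several and 2634 none. All 19572 matched RefSeq (GRCm38.p6) by gene identifier. The feature with the highest mean stood for a gene, giving 19505 genes, fitted with limma 3.58.1 in R 4.3.3 (lmFit, eBayes, no covariate, 5 residual and 4.66 prior degrees of freedom), two-sided, with Benjamini-Hochberg adjustment over all genes. The dimmer Entpd4 feature comes from a fit of all named features. A group was at background where each array read at or below the median of that array's 5222 negative controls, and a fold against it is a lower bound against those medians.

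The members, lists and tests were chosen with earlier results of these data known. Named were all members, called list genes and the 2 smallest p of each list, all neighbours and substrain genes, and the 5 genes at each end of the correlation with Entpd4, without predicted genes and Rik clones; the values of 1 neighbour are not reported here. The script was tested on simulated data. Alternatives were quantile normalization, median centring, a filter below the median gene, averaged features, every feature as a row, values raised to the control median, a trend with robust prior, the animal number as block, and leaving out animals.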

Additional observations from a re-analysis of the deposited data

Results flagged for a closer look

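Among the 55 genes checked, 5 had a WT animal far from the other 3 by Dixon's criterion, which chance gives in about 1 in 20 groups of 4. Nlrp12 read 6.58 in WT 1, against 6.95 to 6.97 in its fellow WT animals. Tcf4 read 13.19 in WT 3 and 13.00 to 13.02 in the others. Cyfip2 read 5.75 in WT 2, P2ry12 5.26 in WT 2 and Slc28a3 5.06 in WT 3, and these 3 were at background in the WT group. No nucleotidase gene of the set, Entpd4 and Entpd7 included, had such an animal.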

How the results depend on the processing

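Entpd4 kept its sign in all 16 alternatives, at -1.91 to -1.64. It was picked for its decrease in these same animals, so the kept sign tests nothing. In none of the alternatives did any of the other 7 nucleotidase genes pass. The count of genes called, 115, was 6 with the animal number as a replicate block, 26 with values raised to the control median and 16 without WT 1 and WT 2. With 1 animal left out it was 15 (without MCT4KO 3) to 64, and the other settings gave 79 to 156. The animal numbers did not pair the samples (correlations of -0.13, 0.016 and 0.050), and the replicate block drops WT 4. The call of Ampd3, the 1 of its list, was lost under those 3 settings, leaving 0 called, and without any 1 animal (0 to 0). In the mineral list 0 to 1 gene was called with an animal left out, Ibsp without MCT4KO 2. Signs of small changes turned. Under quantile normalization Entpd2 gave 0.044 and P2ry12 -0.0024. With the block Entpd3 gave 0.019 and Wdfy1 0.017. With raised values Crb1, P2ry12, Pebp4 and Stc1 gave -0.0079, which is the difference between the groups' control medians. Without WT 1 and WT 2, chosen after seeing the data, Entpd6 gave 0.12, Adam28 0.086, R3hcc1 -0.00073, Slc25a37 0.00079 and Stc1 -0.070. With 1 animal left out the change ran from -0.21 to 0.20 for Entpd2, -0.12 to 0.019 for Entpd3, -0.20 to 0.0047 for Entpd6, -0.11 to 0.068 for Adam28, -0.20 to 0.043 for Fgfbp3, -0.020 to 0.15 for P2ry12, -0.027 to 0.35 for R3hcc1 and -0.061 to 0.032 for Wdfy1. In each case the cause was not tested. Of 857 pairs of gene and setting, 818 kept direction and side of the threshold or stayed within 1 SD. Genes below the median gene, Entpd3 among them, have no value under that filter.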
